A study of Mus musculus with 24 samples.

Results

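The genes described here are 10 members of the tumor necrosis factor (TNF) system that a macrophage can both send and receive, measured by mRNA in RAW264.7 cells. The members were the ligands Tnf and Tnfsf9, the receptors Tnfrsf1a, Tnfrsf1b and Tnfrsf11a, the receptor adaptors Traf1, Traf2 and Traf3, the sheddase Adam17 and the TNF-induced gene Tnfaip2. They were chosen by symbol, and the brightest detected probe stood for each gene. Of the 10 members, 9 had a probe in the annotation table used here and 8 passed the detection filter, out of 8622 genes tested. Traf3 was without a probe in that table and was not analysed here. The Traf2 probe was detected on 0 of 24 arrays, with log2 signals between 6.65 and 6.81, and was not tested.

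TNF is made as a membrane protein and is cut free by the metalloprotease ADAM17. It binds TNFR1 (Tnfrsf1a), which carries a death domain and is found on most cells, and TNFR2 (Tnfrsf1b), which lacks one and recruits TRAF2 directly and TRAF1 with it. Both receptors feed the NF-κB and MAP kinase pathways, which are also the pathways that Toll-like receptors use to switch on Tnf transcription in macrophages.

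RAW264.7 is a mouse macrophage-like line, so all samples came from 1 transformed line rather than from primary cells. The cells were left untreated or received 100 ng/ml LPS from Salmonella minnesota R595, a TLR4 ligand, 1 μM P3C (Pam3CSK4, a synthetic lipopeptide), a TLR2 ligand, or 1 μM R848, an imidazoquinoline that acts on TLR7. RNA was taken after 1, 2 or 4 h, with 2 arrays for each of the 12 groups, called A and B in the labels. The methods call these duplicate biological samples, and with 2 arrays in a group the p-values measure only the spread between such pairs. RNA came from whole cultures, so a change in some cells and a change in every cell cannot be told apart.

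Median signal per array ranged from 95.8 to 115, and 12299 to 13917 of 45281 probes had a detection p under 0.01. Among macrophage markers, 7 of 8 had a probe and were detected in at least 1 group, Cd14, Cd68 and Lyz2 among them. The T cell, B cell, fibroblast and epithelial lists had 1, 2, 2 and 2 genes with a probe, of which 0 were detected on both arrays of any group (Krt8 was detected on 5 single arrays). The 24 arrays lay on 10 slides, and 0 slides held a treated array together with an untreated array of the same time. For treated against untreated cells at a given time, slide and treatment therefore cannot be told apart directly. Values with slide as a block, which use untreated arrays of another time from the shared slides, are given below. Only LPS at 2 and 4 h had both arrays on a slide with an untreated array. R848 at 1 h had neither, so its block values run through LPS and P3C arrays. In the other treated groups only array B shared a slide with an untreated array, so those values lean on a single untreated array.

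The 4 promoters printed here belong to the members that were higher than untreated with all 3 ligands at 2 h and at 4 h and that had a promoter entry. RefSeq promoters, 250 bases before to 50 bases after the annotated start in build GRCm38.p6, matched 9 of the 10 members, Tnfsf9 being the member without an entry. Sequences read 5′ to 3′ along the gene, with capitals for matches on either strand to any of 5 motifs: the NF-κB consensus, the TATA box (TATAAA), the cyclic AMP response element (TGACGTCA), the AP-1 site (TGANTCA) and the interferon-stimulated response element core (GAAANNGAAA). No match overlapped another.
Tnf promoter (chr17:35201958-35202257, minus strand): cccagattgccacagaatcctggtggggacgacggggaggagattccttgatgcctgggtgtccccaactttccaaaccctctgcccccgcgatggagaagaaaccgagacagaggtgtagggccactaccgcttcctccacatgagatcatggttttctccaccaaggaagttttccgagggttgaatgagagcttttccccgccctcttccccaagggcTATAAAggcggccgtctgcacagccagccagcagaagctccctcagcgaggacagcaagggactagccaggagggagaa
Tnfrsf1b promoter (chr4:145246821-145247120, minus strand): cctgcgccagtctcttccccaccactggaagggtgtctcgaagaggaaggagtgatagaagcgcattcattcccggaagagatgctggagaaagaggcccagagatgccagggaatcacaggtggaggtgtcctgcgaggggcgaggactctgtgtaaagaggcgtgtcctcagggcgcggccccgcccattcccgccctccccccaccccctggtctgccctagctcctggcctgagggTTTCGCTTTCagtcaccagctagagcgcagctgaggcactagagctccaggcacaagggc
Traf1 promoter (chr2:34961723-34962022, minus strand): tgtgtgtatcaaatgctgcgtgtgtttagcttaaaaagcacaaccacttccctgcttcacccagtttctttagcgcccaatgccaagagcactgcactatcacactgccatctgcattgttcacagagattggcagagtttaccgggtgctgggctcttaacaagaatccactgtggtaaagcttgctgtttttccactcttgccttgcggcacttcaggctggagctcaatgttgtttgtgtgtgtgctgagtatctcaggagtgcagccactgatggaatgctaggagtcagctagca
Tnfaip2 promoter (chr12:111442411-111442710, plus strand): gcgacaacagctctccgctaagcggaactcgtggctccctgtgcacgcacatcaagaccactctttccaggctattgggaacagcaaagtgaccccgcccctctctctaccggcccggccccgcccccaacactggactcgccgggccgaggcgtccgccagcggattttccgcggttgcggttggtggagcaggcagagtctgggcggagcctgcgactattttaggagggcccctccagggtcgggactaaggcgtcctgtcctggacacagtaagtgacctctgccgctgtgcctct
Tnf carried a TATA box at position -29 from its annotated start, a motif held by 13.6% of 32807 promoters of this length. Tnfrsf1b carried the interferon-stimulated response element core on the opposite strand at -10, as did 3.43% of all promoters somewhere in the window. The NF-κB consensus, held by 4.51% of all promoters, matched the window of 1 member, Traf3, and the AP-1 site (7.82% of all promoters) and cyclic AMP response element (1.79%) matched 0 of the 9. These letters describe the window and give no binding.

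Tnf, the founding cytokine of the family, was the member with the largest rise from untreated in 7 of the 9 comparisons, Traf1 being ahead with P3C at 1 h and R848 at 2 h. On the untreated arrays A and B its log2 signal was 9.05 and 9.39 at 1 h, 8.91 and 9.59 at 2 h, then 8.83 and 9.22 at 4 h. With LPS the signals were 13.46 and 13.29 at 1 h, 13.88 and 13.79 at 2 h, then 13.56 and 13.30 at 4 h. Every LPS array was thus above every untreated array, and the level was already high at the first time sampled. With P3C the signals were 12.17 and 12.29, then 12.51 and 12.14, then 13.55 and 13.65 at the same times. With R848 they were 12.77 and 12.64, then 12.46 and 12.19, then 13.60 and 13.68. The P3C and R848 arrays sat below the LPS arrays at 1 and 2 h and overlapped or passed them at 4 h. Against untreated cells, the LPS arrays differed by 4.15, 4.59 and 4.41 on the log2 scale at the successive times (SE 0.198 for each; 17.7-, 24- and 21.2-fold; limma adjusted p at most 1.44e-09). P3C gave 3.01, 3.08 and 4.57, and R848 gave 3.48, 3.07 and 4.61 (same SE, adjusted p at most 1.38e-07). With slide as a block and untreated arrays of another time, the 9 differences lay between 2.88 and 4.61. A second Tnf probe gave 4.51, 4.72 and 4.64 with LPS at the 3 times. The P3C call at 2 h alone ended in 1 setting, a fit of only the 4 arrays compared (adjusted p 0.057).

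Tnfsf9, the ligand of the costimulatory receptor CD137, had an early peak instead. Untreated cells had log2 signals of 7.61 and 8.08 at 1 h, 7.80 and 8.46 at 2 h, then 8.28 and 8.21 at 4 h. With LPS the signals were 11.30 and 10.88, then 9.63 and 10.11, then 9.11 and 9.45. All LPS arrays stayed above all untreated arrays, but each later pair was lower than the earlier one. P3C gave 10.00 and 10.22, then 8.35 and 8.63, then 9.36 and 9.43, and R848 gave 10.72 and 10.48, then 8.57 and 8.94, then 9.42 and 9.29. At 2 h the lower P3C array lay below the higher untreated array, whereas at 1 and 4 h the groups were apart. The differences from untreated at 1 h were 3.24 with LPS, 2.26 with P3C and 2.75 with R848 (SE 0.233, 9.47-, 4.80- and 6.73-fold, limma adjusted p at most 1.82e-05). At 2 h LPS kept a difference of 1.74 (adjusted p 9.20e-05), while P3C, at 0.37 (95% interval -0.13 to 0.86, adjusted p 0.483), and R848, at 0.63 (0.13 to 1.13, adjusted p 0.139), did not pass. At 4 h the differences were 1.04, 1.15 and 1.11 with LPS, P3C and R848 (adjusted p 0.00351, 0.00353 and 0.00426). These 4 h calls ended when arrays were scaled by their medians rather than quantile-normalized, where the values were 0.61, 1.10 and 1.01 (adjusted p 0.174, 0.088 and 0.11), and the 2 h LPS call ended in a fit of only the 4 arrays compared (adjusted p 0.061). With slide as a block, P3C and R848 at 2 h gave 0.57 and 0.83 against untreated arrays at 1 h and passed (adjusted p 0.045 and 0.0061).

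**Figure D1:**
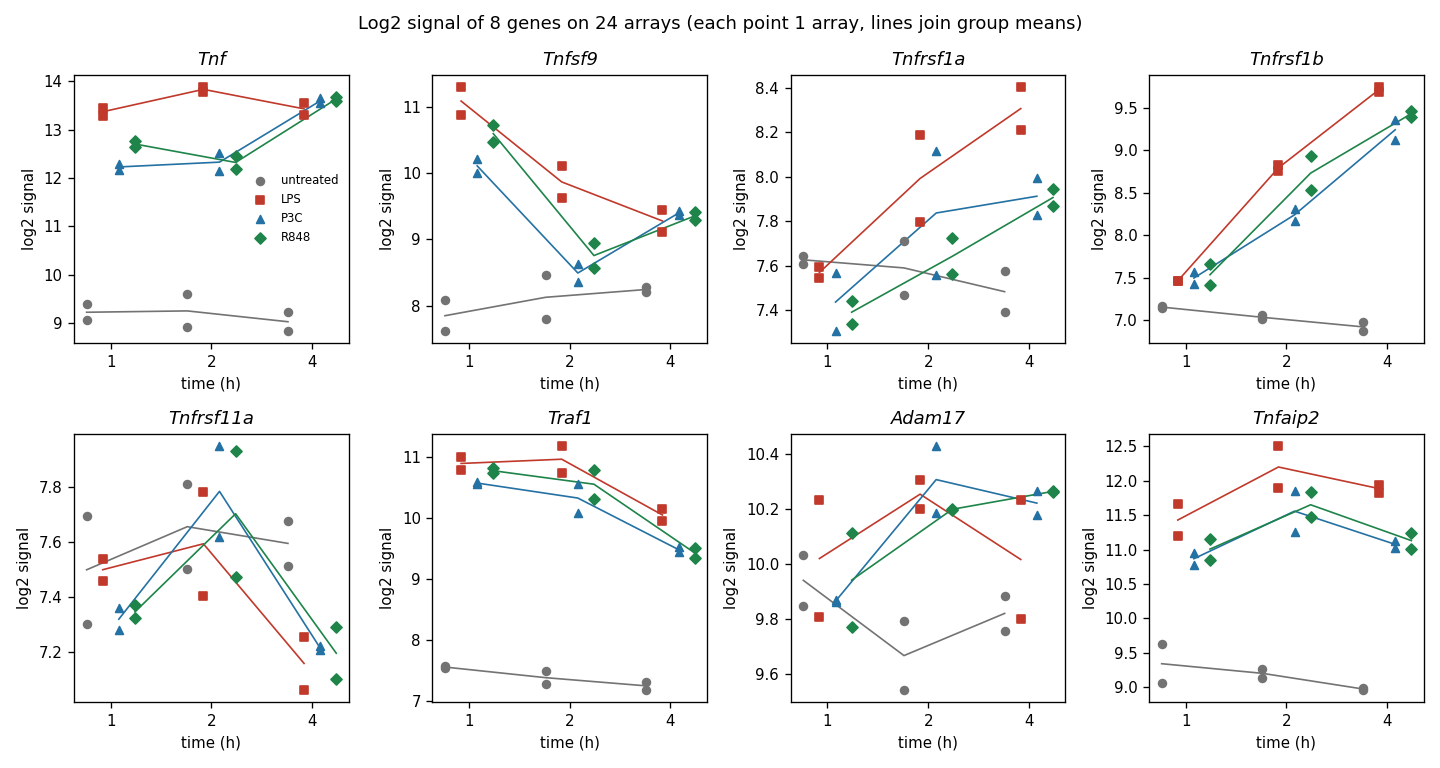
Log2 signal (y axis of each panel, own scale) against time in hours for the 8 tested genes on 24 arrays, each point 1 array and each line joining the means of 2 arrays. Tnf with LPS sat between 13.29 and 13.88 at all times while the P3C and R848 points reached 13.55 to 13.68 only at 4 h, and Tnfsf9 was highest at 1 h with each ligand.

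The TNF receptors followed separate courses. Tnfrsf1b, encoding TNFR2, climbed with time. Untreated arrays read 7.14 and 7.17 at 1 h, 7.01 and 7.06 at 2 h, then 6.97 and 6.87 at 4 h, close to the detection level, and array B at 4 h was not detected. With LPS the log2 signals were 7.46 and 7.46, then 8.83 and 8.76, then 9.68 and 9.74. All arrays of each ligand were above all untreated arrays at each time, by little at 1 h and by much more later. P3C gave 7.42 and 7.57, then 8.31 and 8.17, then 9.12 and 9.36, and R848 gave 7.66 and 7.41, then 8.93 and 8.53, then 9.40 and 9.47. At 1 h the differences were 0.31, 0.34 and 0.38 with LPS, P3C and R848, which did not pass (adjusted p 0.26, 0.195 and 0.125). At 2 h they were 1.76, 1.21 and 1.70, and at 4 h 2.79, 2.32 and 2.51 (SE 0.119, 6.93-, 4.99- and 5.69-fold at 4 h, limma adjusted p at most 1.17e-05). With slide as a block the 1 h arrays differed by 0.52, 0.56 and 0.76 from untreated arrays at 4 h, which passed (adjusted p 0.01, 0.0074 and 0.0098). The R848 value was reached only through LPS and P3C arrays, since no R848 array at 1 h shared a slide with an untreated array. The untreated signal was itself lower at 4 h than at 1 h. Background correction (neqc) enlarged the 4 h differences to 4.53, 3.99 and 4.21. The other 2 Tnfrsf1b probes, detected in 6 and 4 of the 12 groups, gave only 1.30 and 0.99 with LPS at 4 h, and their P3C and R848 values at 2 h were 0.15 to 0.36 and did not pass. The P3C call at 2 h also ended with median scaling (1.14, adjusted p 0.17) and in the fit of only the 4 arrays compared (adjusted p 0.062).

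Tnfrsf1a, encoding TNFR1, moved far less and passed in 1 of the 9 comparisons. Its untreated log2 signals were 7.65 and 7.61 at 1 h, 7.71 and 7.47 at 2 h, then 7.58 and 7.39 at 4 h. With LPS they were 7.55 and 7.60, then 8.19 and 7.80, then 8.40 and 8.21. The LPS arrays were below the untreated ones at 1 h and above it at 2 and 4 h. P3C gave 7.57 and 7.31, then 8.11 and 7.56, then 7.83 and 8.00, and R848 gave 7.34 and 7.44, then 7.72 and 7.56, then 7.87 and 7.95. The 4 h difference with LPS was 0.82 (SE 0.164, 1.77-fold, limma adjusted p 0.00145). P3C and R848 at 4 h were 0.43 and 0.42 (adjusted p 0.118 and 0.116), with all their arrays above the untreated ones. The LPS value was 1.34 with background correction and 0.47 with median scaling, which ended the call (adjusted p 0.28). Both other Tnfrsf1a probes gave it as 0.89 and 0.77. With slide as a block, P3C and R848 at 4 h were both 0.49 against untreated arrays at 2 h and passed (adjusted p 0.018 and 0.019). LPS at 2 h against untreated arrays at 1 h passed too (0.36, adjusted p 0.033).

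Tnfrsf11a encodes RANK, the receptor through which RANKL drives macrophage precursors, RAW264.7 cells included, toward osteoclasts. It was called in 0 of the 9 comparisons by limma. Its untreated log2 signals were 7.70 and 7.30 at 1 h, 7.81 and 7.50 at 2 h, then 7.68 and 7.51 at 4 h. At 4 h it read 7.25 and 7.06 with LPS, 7.21 and 7.22 with P3C, then 7.10 and 7.29 with R848. All 6 treated arrays at 4 h were therefore below both untreated arrays, which was not so at 1 or 2 h, where signals with ligand ran from 7.28 to 7.95. The 4 h differences were -0.44, -0.38 and -0.40 (SE 0.174, unadjusted p 0.0238, 0.0446 and 0.0362, adjusted p 0.078, 0.205 and 0.167). The LPS value passed under 6 of the alternatives, among them background correction and all 6 untreated arrays pooled (-0.43, adjusted p 0.022). Another was slide as a block with untreated arrays at 2 h (-0.50, adjusted p 0.00014). The P3C and R848 values also passed with slide as a fixed block and untreated arrays at 2 h (-0.27 and -0.28, adjusted p 0.032 and 0.023). The P3C value passed in the fit of only the 4 arrays compared (adjusted p 0.048). Of the osteoclast markers, 7 had a probe and 4 were detected in a group. Ctsk, Nfatc1 and Dcstamp were detected on all 24 arrays and Ocstamp on 2, while Acp5, Oscar and Calcr were detected on 0.

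Traf1, an adaptor that joins TRAF2 on TNFR2 and is itself a target of NF-κB, rose early and stayed up. Untreated log2 signals were 7.57 and 7.53 at 1 h, 7.27 and 7.48 at 2 h, then 7.18 and 7.31 at 4 h. The LPS arrays read 11.00 and 10.78, then 11.18 and 10.74, then 10.15 and 9.95. No treated array came within 2 log2 units of the untreated arrays of its time, the closest being R848 and P3C at 4 h. P3C gave 10.55 and 10.59, then 10.56 and 10.09, then 9.44 and 9.52, and R848 gave 10.81 and 10.73, then 10.79 and 10.31, then 9.35 and 9.50. The differences at 1, 2 and 4 h were 3.34, 3.58 and 2.80 with LPS, whereas P3C gave 3.02, 2.94 and 2.23 and R848 gave 3.22, 3.17 and 2.18 (SE 0.175, 4.53- to 12-fold, limma adjusted p at most 5.32e-07). With slide as a block and untreated arrays of another time they were 2.10 to 3.67. The second Traf1 probe, annotated to another transcript record, passed in all 9 comparisons with differences of only 1.04 to 1.89, and with LPS it read 1.10 at 1 h and 1.86 at 4 h.

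Adam17, which releases soluble TNF and also sheds both TNF receptors, showed small changes. Untreated log2 signals were 10.03 and 9.85 at 1 h, 9.79 and 9.54 at 2 h, then 9.76 and 9.88 at 4 h. At 2 h it read 10.31 and 10.20 with LPS, 10.18 and 10.43 with P3C, then 10.20 and 10.20 with R848. All 6 treated arrays were above both untreated arrays at 2 h. At 4 h P3C (10.18 and 10.26) and R848 (10.27 and 10.26) were still above untreated cells, while LPS gave 10.23 and 9.80 and overlapped them. At 1 h all groups overlapped, with LPS at 9.81 and 10.23, P3C at 9.86 and 9.87, and R848 at 9.77 and 10.11. The 2 h differences passed with LPS (0.59, SE 0.158, 1.50-fold, limma adjusted p 0.0234) and P3C (0.64, 1.56-fold, adjusted p 0.0259), and R848 was 0.53 (adjusted p 0.0602). Both calls ended with a single array left out. Without array B of untreated cells at 2 h the values were 0.46 and 0.51 (adjusted p 0.2 and 0.25), and the LPS call also ended without either LPS array (0.53 and 0.64, adjusted p 0.16 and 0.057), the P3C call without P3C array B (0.52, adjusted p 0.16). Median scaling (0.71 and 0.65) and a fit of only the 4 arrays compared ended both as well (adjusted p 0.13 to 1). With slide as a block and untreated arrays at 1 h the LPS value was 0.31 and still passed (adjusted p 0.039). At 4 h, P3C and R848 differed from untreated by 0.40 and 0.44 (adjusted p 0.13 and 0.0828). With slide as a block and untreated arrays at 2 h the values were 0.74 and 0.79 and passed (adjusted p 0.001 and 0.00066). LPS at 4 h passed in this setting too. The untreated mean was itself lower at 2 h (9.67) than at 4 h (9.82). For P3C and R848 the only untreated array on a shared slide was array B at 2 h (9.54), the array whose removal ended the 2 h calls.

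Tnfaip2, named for its induction by TNF in endothelial cells, was raised throughout. Untreated log2 signals were 9.06 and 9.62 at 1 h, 9.27 and 9.13 at 2 h, then 8.96 and 8.99 at 4 h. With LPS they were 11.20 and 11.66, then 11.89 and 12.51, then 11.94 and 11.83. P3C gave 10.78 and 10.95, then 11.26 and 11.86, then 11.13 and 11.02, and R848 gave 10.85 and 11.16, then 11.47 and 11.84, then 11.25 and 11.01. Every treated array was above every untreated array. At each time both LPS arrays were above all P3C and R848 arrays of that time, at 2 h by little (11.89 against 11.86). The differences at 1, 2 and 4 h were 2.09, 3.0 and 2.92 with LPS, whereas P3C gave 1.53, 2.36 and 2.10 and R848 gave 1.67, 2.45 and 2.16 (SE 0.239, 2.88- to 8.01-fold, limma adjusted p at most 0.00129). The other 2 Tnfaip2 probes gave 1.93 and 1.96, 3.32 and 3.02, and 2.61 and 2.49 with LPS. In fits of only the 4 arrays compared, the LPS and P3C calls at 1 h and the P3C call at 2 h ended (adjusted p 0.052 to 0.061).

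**Figure D2:**
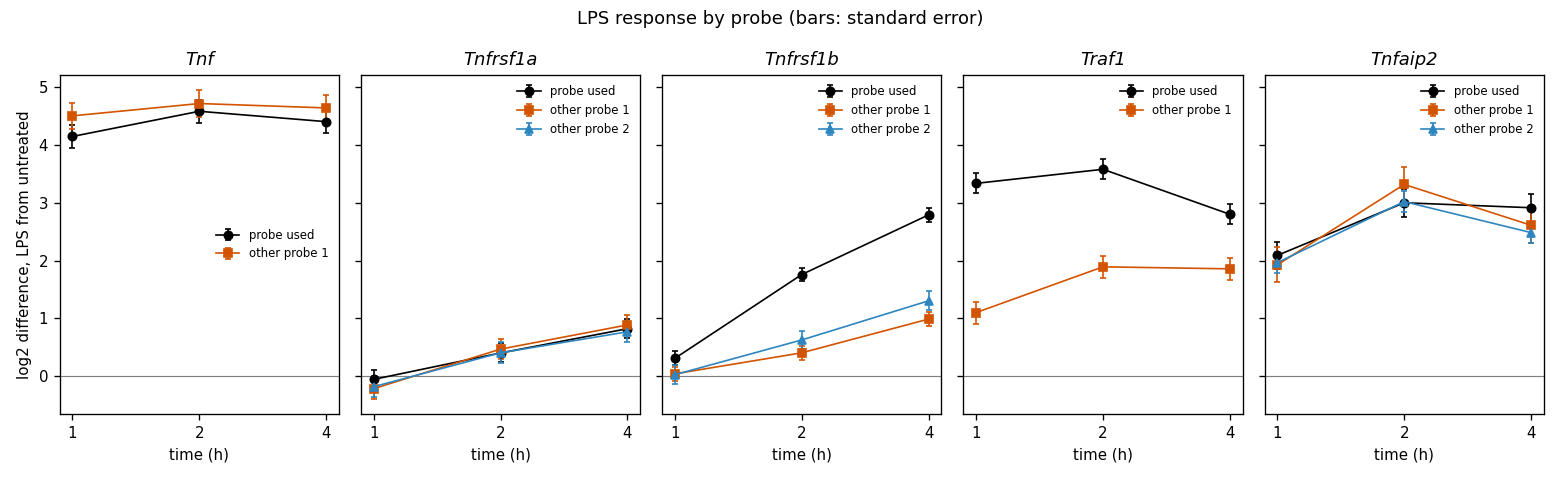
Log2 difference of LPS from untreated cells (y axis) against time in hours for each detected probe of the 5 genes with more than 1, with standard errors as bars. Probes of Tnf, Tnfrsf1a and Tnfaip2 lay close together, whereas for Traf1 at 1 h the probes read 3.34 and 1.10 and for Tnfrsf1b at 4 h they read 2.79, 1.30 and 0.99.

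Counted over the 8 tested members, LPS raised 4 at 1 h, 6 at 2 h and 6 at 4 h, where 2.1%, 5.52% and 10.8% of all 8622 genes were higher. P3C raised 4, 5 and 5 members (1.73%, 3.07% and 5.4% of all genes), and R848 raised 4, 4 and 5 (2.03%, 3.34% and 6.3%). None of the 8 was lower in limma's test, against 1.41%, 6.33% and 16% of all genes with LPS, where P3C had 1.29%, 2.41% and 5.43% and R848 had 1.38%, 3.24% and 6.38%. Tnfrsf11a alone was lower at an unadjusted p under 0.05, at 4 h with each ligand. Tnf, Traf1 and Tnfaip2 were called in all 9 comparisons, Tnfsf9 in 7 and Tnfrsf1b in 6. The median log2 difference of the 8 members with LPS was 1.20, 1.75 and 1.91 at the 3 times, where the median of all genes was -0.03, -0.03 and -0.06. The 3 ligands were set against the same 2 untreated arrays at each time, so their differences from untreated are not independent of each other. The P3C count at 2 h fell from 5 to 3 with median scaling, losing Tnfrsf1b and Adam17, and to 1 in a fit of only the 4 arrays compared.

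**Figure D3:**
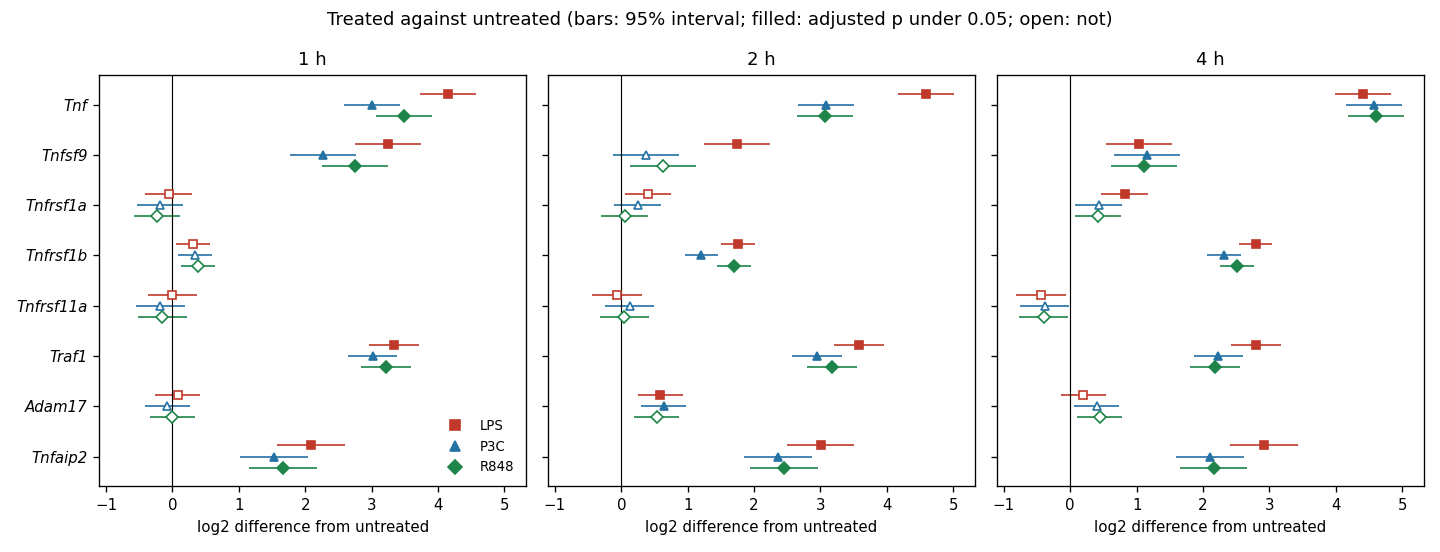
Log2 difference from untreated cells (x axis) for the 8 genes at 1, 2 and 4 h, with 95% intervals as bars, filled symbols for adjusted p under 0.05 and open symbols otherwise. Tnf, Traf1 and Tnfaip2 were filled in every panel, Tnfrsf1b from 2 h on, and the 3 Tnfrsf11a points at 4 h lay at -0.44 to -0.38 without passing.

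The ligands were then compared directly at the same time and dose as given, 100 ng/ml for LPS and 1 μM for P3C and R848, so these contrasts are between ligand preparations at unequal doses. LPS exceeded P3C for Tnf at 1 h by 1.14 (SE 0.198, 2.21-fold, limma adjusted p 0.0197), the only member called, where 0.209% of all genes were. At 2 h, LPS exceeded P3C for Tnf by 1.51 (2.84-fold, adjusted p 0.000294), for Tnfsf9 by 1.38 (2.60-fold, adjusted p 0.00328) and for Tnfrsf1b by 0.55 (1.47-fold, adjusted p 0.0252), where 1.48% of all genes were called. At 4 h only Tnfrsf1b was called, by 0.47 (1.39-fold, adjusted p 0.0265; 5.81% of all genes). For Tnf at 4 h the difference was -0.16 with a 95% interval of -0.59 to 0.26, and for Tnfsf9 it was -0.12 (-0.62 to 0.38). Pairs of arrays on the same slide gave 1.29 and 1.00 for Tnf at 1 h, 1.64 for Tnf and 1.48 for Tnfsf9 at 2 h, and 0.39 for Tnfrsf1b at 4 h. The Tnf call at 1 h ended when any 1 of the 4 arrays was left out (1.06 to 1.23, adjusted p 0.11 to 0.33). Median scaling ended all 5 of these calls, with 1.17 for Tnf at 1 h and 1.62 at 2 h (adjusted p 1 and 0.059), and so did a fit of only the 4 arrays compared. The Tnfsf9 call at 2 h ended without LPS array B (1.13, adjusted p 0.075) or P3C array A (1.24, adjusted p 0.052), the Tnfrsf1b call at 2 h without any 1 array (adjusted p 0.054 to 0.27), and that at 4 h without LPS array A or B or P3C array A (adjusted p 0.096 to 0.28). The Tnfrsf1b differences also shrank with its other probes, to 0.22 and 0.27 at 2 h and to 0.31 and 0.41 at 4 h, and with median scaling at 4 h to 0.11.

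LPS against R848 gave calls at 2 h alone, for Tnf by 1.51 (2.85-fold, limma adjusted p 0.000359) and Tnfsf9 by 1.11 (2.16-fold, adjusted p 0.0259), where 1.19% of all genes were called. At 1 h 0 members were called against 0.116% of all genes, with 1 member, Tnf, at an unadjusted p under 0.05 (0.67, 95% interval 0.25 to 1.09), and at 4 h 0 against 4.69%, with 4 under 0.05. The slide-matched pair at 2 h gave 1.60 for Tnf and 1.17 for Tnfsf9. The Tnfsf9 call ended without LPS array B (0.87, adjusted p 0.29) or R848 array A (0.93, adjusted p 0.34), with median scaling (1.41, adjusted p 0.068) and in the fit of only the 4 arrays compared (adjusted p 0.76), which also ended the Tnf call (adjusted p 0.12). R848 against P3C gave 0 calls by limma among the 8 members at 1, 2 and 4 h, with 1, 1 and 0 of them at an unadjusted p under 0.05, where 0.0348%, 0.0232% and 0% of all genes were called and 106, 155 and 61 genes had an unadjusted p under 0.05. The largest of these differences was 0.49 for Tnfrsf1b at 2 h (95% interval 0.24 to 0.74), which read -0.04 with either of the other 2 Tnfrsf1b probes. For Tnf the intervals were 0.05 to 0.90, -0.43 to 0.42 and -0.38 to 0.46.

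Some members read higher with LPS than with the other ligands at 4 h without passing. Tnfaip2 differed by 0.81 from P3C (95% interval 0.30 to 1.32, limma adjusted p 0.0654) and by 0.76 from R848 (0.25 to 1.27, adjusted p 0.103). Traf1 differed by 0.57 (0.19 to 0.94, adjusted p 0.0808) and 0.62 (0.25 to 0.99, adjusted p 0.0587). On the same slide the values were 0.81 and 0.81 for Tnfaip2 and 0.43 and 0.44 for Traf1. These 4 differences of Tnfaip2 and Traf1 passed with slide as a fixed or random block. Tnfrsf1a differed by 0.39 from P3C (0.04 to 0.74, adjusted p 0.252) and by 0.40 from R848 (0.05 to 0.75, adjusted p 0.251), with both LPS arrays above every P3C and R848 array, and passed with neither slide block (0.22 to 0.30, adjusted p 0.12 to 0.272). Tnfrsf1b lay above R848 by 0.28 (0.03 to 0.54, adjusted p 0.267). In the fit with slide as a fixed block 12 member and time pairs were called for LPS against P3C in place of 5. Adam17 at 4 h was among them in the other direction, lower with LPS (-0.20 in the main fit without passing, -0.46 on the same slide). It was also lower with LPS than with R848 at 4 h (-0.25 in the main fit without passing), which passed with slide as a fixed or random block.

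**Figure D4:**
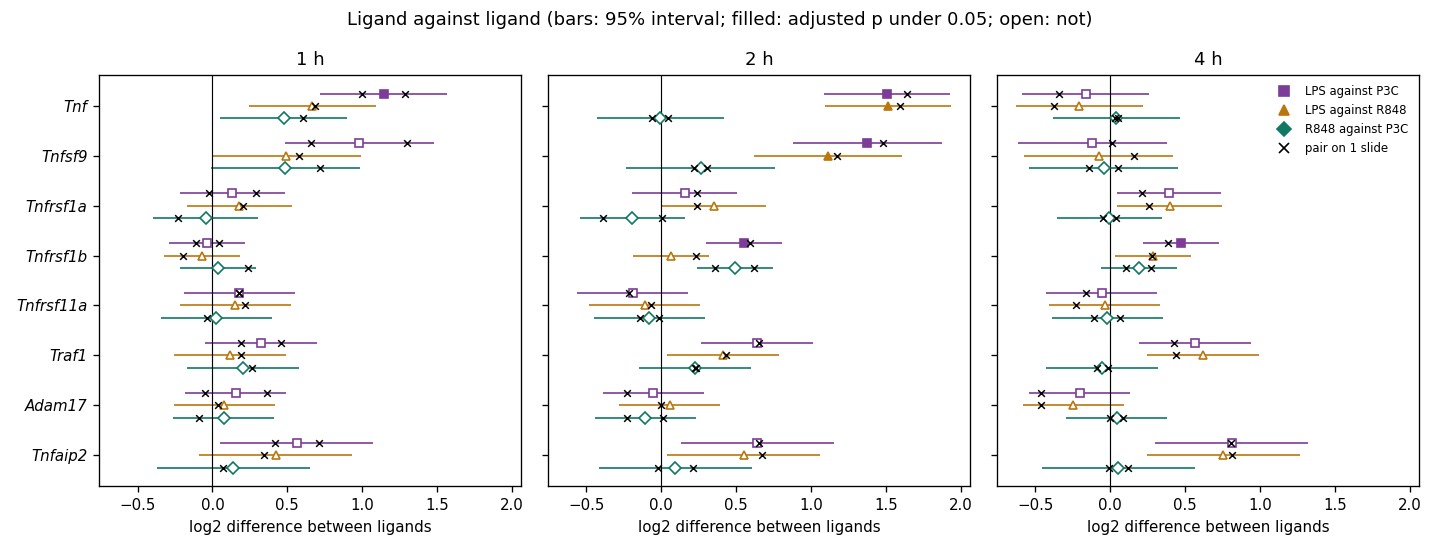
Log2 difference between ligands (x axis) for the 8 genes at 1, 2 and 4 h, with 95% intervals as bars, filled symbols for adjusted p under 0.05, and crosses for pairs of arrays on 1 slide. At 2 h LPS lay above P3C and R848 by 1.51 for Tnf, and at 4 h all 3 Tnf intervals included 0.

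Whether the response itself changed with time was tested as the difference from untreated at 4 h minus that at 1 h. With LPS, 3 members were called where 10% of all genes were. The Tnfrsf1b response grew by 2.48 (SE 0.168, limma adjusted p 8.54e-08) and that of Tnfrsf1a by 0.88 (adjusted p 0.0238), while the Tnfsf9 response fell by 2.21 (SE 0.329, adjusted p 0.000303). For Tnf with LPS the change was 0.26 (95% interval -0.34 to 0.85, adjusted p 0.694). The Tnfrsf1a call ended without any 1 of 6 of the 8 arrays involved (adjusted p 0.052 to 0.1) and with median scaling (0.49, adjusted p 0.48).

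With P3C, 2 members were called where 2.92% of all genes were, Tnf by 1.56 (SE 0.280, limma adjusted p 0.00448) and Tnfrsf1b by 1.98 (adjusted p 1.11e-05), a call that both other Tnfrsf1b probes lost (0.55 and 0.83). With R848, 4 were called where 3.54% of all genes were: Tnf by 1.13 (adjusted p 0.0359), Tnfrsf1b by 2.13 (adjusted p 3.45e-06), Tnfsf9 by -1.64 (adjusted p 0.00983) and Traf1 by -1.04 (adjusted p 0.0284). The rise in the Tnf response came between 2 and 4 h, where it was 1.49 for P3C and 1.54 for R848 (adjusted p 0.0149 and 0.0113), and between 1 and 2 h the changes were 0.07 and -0.41 (adjusted p 0.958 and 0.789). The Tnfsf9 response fell between 1 and 2 h with each ligand, with changes of -1.50, -1.90 and -2.12 for LPS, P3C and R848 (adjusted p 0.0277, 0.0117 and 0.00462). From 2 to 4 h its values were -0.71, 0.79 and 0.48 in the same order (adjusted p 0.321, 0.535 and 0.89).

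These calls were less even under other settings. The R848 call for Tnf ended without either array of R848 at 1 or 4 h, without untreated array B at 1 h and without untreated array A at 4 h (0.93 to 1.20, adjusted p 0.079 to 0.19), with slide as a random block (1.17, adjusted p 0.075) and with the second Tnf probe (1.15, adjusted p 0.081). That for Traf1 ended without any 1 of the 8 arrays (-1.12 to -0.96, adjusted p 0.059 to 0.11). The second Traf1 probe read 0.24 (adjusted p 0.83) in place of -1.04. The R848 call for Tnfsf9 ended without array A of untreated cells or of R848 at 1 h (-1.41 and -1.52, adjusted p 0.056 and 0.051). With median scaling, where the median of all genes moved from -0.01 to -0.12 with P3C and from -0.04 to -0.40 with LPS, 6 of the 9 calls at 4 h against 1 h ended, among them the P3C calls for Tnf (1.33) and Tnfrsf1b (2.01, adjusted p 0.79 and 0.064). The 11 calls from 1 to 2 h or 2 to 4 h, which include 6 for Tnfrsf1b, all ended with median scaling (adjusted p 0.05 to 1), and 9 of them ended in the fit of only the arrays compared. Over these intervals 0.87% to 4.48% of all genes were called in the main fit. The Tnf calls from 2 to 4 h ended with slide as a random block (1.53 and 1.58, adjusted p 0.076 and 0.061), without array B of untreated cells or of the ligand at 2 h, and without untreated array A or ligand array B at 4 h (1.15 to 1.50, adjusted p 0.05 to 0.101). The Tnfsf9 calls from 1 to 2 h with LPS and P3C ended without any 1 of 4 arrays each, array A of untreated cells at 1 h and array B at 2 h among them (-1.79 to -1.17, adjusted p 0.053 to 0.15), whereas the R848 call held without each of the 8. For Tnfrsf1b both other probes lost all 6 of these calls (0.06 to 0.82, adjusted p 0.086 to 0.94). In untreated cells 0 of the 8 members were called between 1 and 4 h by limma, with 0 at an unadjusted p under 0.05, where 0.0696% of all genes were called.

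Among the 12 groups, the levels of Tnf ordered into the untreated groups, then P3C at 1 and 2 h with R848 at 2 h, then R848 at 1 h, then LPS at 1 and 4 h with P3C and R848 at 4 h, and last LPS at 2 h. Of the 11 steps between neighbouring groups in that order, 4 were apart, meaning that the arrays did not overlap. For Tnfrsf1b 8 of the 11 steps were apart, running from untreated through the 1 h, 2 h and 4 h groups, whereas for Adam17 0 were. The 5 genes whose 12 group means followed Tnf most closely, as a description over groups that share time and untreated arrays, were Socs3 (Pearson's r 0.996), Nfkbia (0.984), Cdc42ep2 (0.979), Ybx3 (0.973) and Ccl3 (0.969). Of the members, Tnfaip2 came nearest at 0.928, rank 40 of 8621 genes, followed by Traf1 at 0.863, Tnfrsf1b at 0.76, Tnfsf9 at 0.717, Adam17 at 0.713, Tnfrsf1a at 0.508 and Tnfrsf11a at -0.45.

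Replicate differences were set beside the standard error of the bead mean on each array, which is smaller than the spread of single beads. The used probes were read on 22 to 65 beads per array, with bead standard errors of 0.025 to 0.076 on the log2 scale. The residual SD between replicates ran from 0.121 for Tnfrsf1b to 0.261 for Tnfaip2. Between 4 and 9 of the 12 replicate pairs of each gene differed beyond their bead error, with the fewest for Tnfrsf1b. Of all tested genes, 33.8% (P3C at 1 h) to 66.2% (R848 at 2 h) did so per group, so this was not particular to the members.

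Of 16 other TNF superfamily ligands listed, only 7 had a probe and 3 were tested. Genes named from this and the following lists were picked for a large LPS difference at 4 h, which favours LPS over the other ligands there. With LPS at 4 h all 3 passed as higher, with a median of 0.54. Ltb, encoding lymphotoxin beta, had a difference of 1.61 (limma adjusted p 1.9e-05). Tnfsf13b, encoding the B cell survival factor BAFF, differed at 4 h by 0.54 with LPS but by -0.52 with P3C and -0.51 with R848, all 3 called, and LPS exceeded P3C by 1.06 in the direct comparison (adjusted p 3.9e-08). Lta was not above detection in untreated cells and was at least 1.10-fold higher with LPS, measured against the detection level of the array. It therefore entered only through a group with ligand, so its being higher follows in part from the detection filter. With P3C and R848 at 4 h, 1 ligand was higher and 1 lower. Of all genes, 5.4% were higher and 5.43% lower with P3C, and 6.3% and 6.38% with R848.

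Of 25 other receptors, 14 had a probe and 8 were tested, and 3 were higher and 1 lower with LPS at 4 h (median 0.18). Cd40, the receptor for T cell help, differed by 4.55 with LPS, 2.71 with P3C and 3.16 with R848 at 4 h, and exceeded P3C and R848 in LPS by 1.84 and 1.38 (limma adjusted p 1.1e-06 and 2.8e-05). Fas, a death receptor, differed by 3.16, 1.84 and 1.96, also with LPS above P3C and R848 (1.32 and 1.21). Tnfrsf10b differed by 0.37 and Tnfrsf22 by -0.86 with LPS at 4 h (adjusted p 0.034 and 0.043). With P3C and R848 2 of the 8 passed, both higher, where 5.4% and 6.3% of all genes were higher. At 1 h the LPS differences of Cd40 and Fas were 1.84 and 0.42.

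The list of other adaptors and signalling complex genes had 28 of 33 tested. With LPS at 4 h, 8 were higher and 3 lower, where 10.8% and 16% of all genes were. P3C had 2 and 1 (5.4% and 5.43% of all genes), and R848 had 3 and 0 (6.3% and 6.38%). The medians were 0.12, 0.05 and 0.09. With LPS, Trafd1, an inhibitor of Toll-like receptor signalling, differed by 2.38, Tnip1, a partner of A20, by 1.90, Mlkl, the effector of necroptosis, by 1.59 and Casp8, its antagonist, by 0.70 (limma adjusted p at most 0.00046). Mlkl and Casp8 gave 0.31 and 0.05 with P3C and 0.34 and 0.13 with R848 and did not pass there, and LPS exceeded P3C by 1.29 and 0.65 (adjusted p 1.5e-06 and 0.00092). Both genes were named for their LPS difference at 4 h, so this contrast on the same LPS arrays is not independent of that choice. Of 3 tested shedding genes, Rhbdf2, which carries ADAM17 to the cell surface in macrophages, was 1.12 higher with LPS at 4 h and Rhbdf1 0.54 higher (adjusted p 0.00026 and 0.0038).

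Of 4 tested genes named as TNF-induced, 1 passed with LPS at 4 h. This was Tnfaip3, encoding A20, the deubiquitinase that restrains NF-κB, with LPS differences of 3.23, 2.37 and 1.90 at 1, 2 and 4 h, and LPS exceeded P3C by 1.62, 1.81 and 0.70 (limma adjusted p 3.2e-05, 1.5e-06 and 0.0063). Its LPS signal, like that of Tnfsf9, was highest at 1 h of the 3 times. Of 7 tested regulators of Tnf mRNA, 3 were higher and 0 lower with LPS at 4 h. Zfp36, encoding tristetraprolin, which binds AU-rich elements of Tnf mRNA and speeds its decay, differed by 3.52, 1.79 and 3.0 with LPS at 1, 2 and 4 h. Mapkapk2, the kinase that inactivates tristetraprolin, differed by 1.17 with LPS at 4 h and Rc3h1 by 0.21 (adjusted p 0.032 and 0.026). These lists were read by counts alone, beside 10.8% of all genes higher and 16% lower with LPS at 4 h.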

How the data were processed

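Total RNA of RAW264.7 cells was hybridised to Illumina bead arrays, 1 colour, 24 arrays in 12 groups of 2. The deposited tables hold non-normalized signal intensities and detection p-values from GenomeStudio 2011.1 per the labels, without background subtraction by the authors so far as the sources state, and per-array files with bead counts and bead standard errors. The authors' own table holds log2, quantile-normalized values of 23937 probes, and 99.9993% of them lay within 0.001 of the values computed here. The array files name no genome build.

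Here the deposited intensities were log2-transformed and quantile-normalized over 45281 probes. A probe entered when some group had it detected, at p under 0.01, by each of its arrays (14119 probes, of which 12540 had a single gene name from the platform table, updated through gene identifiers), and the brightest stood for each gene, leaving 8622 genes. Groups came from sample titles. All 24 arrays were fitted in limma 3.58.1 (R 4.3.3) with 12 residual degrees of freedom and Benjamini-Hochberg adjustment over all genes per comparison, and adjusted p under 0.05 was called. Without background correction, fold changes of dim probes are compressed. The script was tested on simulated data. Alternatives were neqc (offset 16), median scaling, the authors' table, other detection filters, pooled untreated arrays, slide as a fixed or random block, a fit of only the arrays compared, a replicate block, other probes and leaving out each array. The figures used matplotlib 3.10.9.

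The members and gene lists were chosen with earlier results of these data known. All members are given in every array, and from each other list at most the 4 genes with the largest difference among those called for LPS at 4 h are named. Array letters A and B were not used as pairs in the main fit. In 66 pairs of groups the deviations of like letters correlated at -0.647 to 0.847 (median 0.223), above 0.1 in 38. A partial pairing by letter therefore remains possible, and a replicate block was fitted as an alternative. Precision is limited by the number of arrays.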

Additional observations from a re-analysis of the deposited data

Results flagged for a closer look

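The response to a ligand, taken as treated minus untreated on the log2 scale, was tested for a difference between times. In limma 20 such differences passed, for 5 of the 8 members. Of all genes, 10%, 2.92% and 3.54% were called from 1 to 4 h with LPS, P3C and R848. From 1 to 2 h the shares were 1.87%, 0.87% and 0.905%, and from 2 to 4 h 4.48%, 1.06% and 1.03%. For Tnfrsf1b the response grew from 1 to 4 h by 2.48 with LPS, 1.98 with P3C and 2.13 with R848, from 1 to 2 h by 1.45, 0.86 and 1.32, and from 2 to 4 h by 1.03, 1.11 and 0.81, and both other Tnfrsf1b probes lost the 6 calls over the shorter intervals, where with P3C from 1 to 2 h they read 0.06 and 0.29. For Tnfsf9 the change was -2.21 with LPS and -1.64 with R848 from 1 to 4 h, and -1.50, -1.90 and -2.12 with LPS, P3C and R848 from 1 to 2 h. For Tnf it grew by 1.56 (P3C) and 1.13 (R848) from 1 to 4 h and by 1.49 and 1.54 from 2 to 4 h. The Tnfrsf1a response to LPS grew by 0.88 from 1 to 4 h and the Traf1 response to R848 fell by 1.04 over the same interval. Untreated arrays of each time lay on other slides than the treated arrays of that time, and with slide as a random block 3 of the 20 calls ended, all for Tnf (R848 from 1 to 4 h at 1.17, P3C and R848 from 2 to 4 h at 1.53 and 1.58, adjusted p 0.075, 0.076 and 0.061). Groups of 2 arrays were too small for a test of single outlying arrays.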

How the results depend on the processing

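Of 70 called member results, 32 kept their direction and call in every setting tried, 38 lost the call in at least 1, and 17 of these 38 were among the 20 calls of a response between times. The sign turned in 1, the Traf1 response to R848 at 4 h against 1 h, at 0.24 with the second probe. Counts of called members against untreated cells stayed within 1.5 times for LPS at all times, for P3C at 1 h and for R848 at 1 and 2 h. The P3C count at 2 h, 5, was 3 with median scaling and 1 in a fit of only the arrays compared. The P3C and R848 counts at 4 h, 5 each, were 8 each with slide as a fixed block and untreated arrays at 2 h. The 5 calls of LPS against P3C became 3 with neqc, 1 with median scaling, 3 when genes had to be detected on all 24 arrays (which leaves out Tnfrsf1b), 12 and 11 with slide as a fixed or random block, 1 in a fit of only the arrays compared, 3 with second probes, and 3 to 5 leaving out an array. The 2 calls of LPS against R848 became 6 with slide as a fixed and 6 as a random block, 1 in a fit of only the arrays compared, 4 with the replicate block and 1 to 2 leaving out an array, and the 0 of R848 against P3C became 1 with slide as a random block. The calls of response at 4 h against 1 h went from 2 to 0 (median scaling), 1 (detected on all arrays), 4 (only the arrays compared) and 1 (second probes) with P3C, and from 4 to 2 (neqc), 1 (median scaling), 2 (second probes) and 1 to 3 (leaving out an array) with R848. The cause was not tested. With the replicate block 4 member results not called before passed and 0 calls ended. Median scaling moved the median of all genes with LPS at 4 h from -0.06 to -0.33. Array signal near the detection level limits Tnfrsf1b in untreated cells and Traf2 in all groups, and at a spread of 0.121 to 0.261 between replicates small changes such as those of Adam17 and Tnfrsf11a were at the edge of what 2 arrays per group could show.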
